A study of Homo sapiens with 8 samples.

Results

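MT-TM is the mitochondrial DNA (mtDNA) gene of the methionine transfer RNA, mt-tRNAMet. It lies on the plus strand at chrM 4403 to 4470 (UCSC hg19 numbering, as in the deposited files), is 68 nt long, and was chosen by name and position as 1 of the 37 genes of human mtDNA, of which 22 encode tRNAs. The data came from HEK293, an established human embryonic kidney line. In 6 samples, cells were transfected with myc-tagged NSun3 or myc-tagged NSun6 and bound RNA was pulled down with an anti-myc antibody, with 3 replicates for each enzyme. The NSun3 construct carried a mutation of the active-site cysteine that normally releases the RNA, so that the enzyme stays attached to the cytosine it acts on. The assay, miCLIP, sequences cDNAs that stop beside that attachment, and each count is a read at its listed stop position. NSun6 was the comparator, expressed and pulled down in the same way. The study's text does not say whether the NSun6 construct carried the matching mutation. No library without an expressed enzyme was analysed here. The remaining 2 samples were bisulfite sequencing of poly(A) RNA from the same line, pooled in 1 table.

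Human mitochondria have a single tRNAMet, which serves both the start of protein synthesis and its elongation. The first base of its anticodon, the wobble cytosine, is known to be methylated by NSun3 to 5-methylcytosine and then oxidised to 5-formylcytosine, which lets the tRNA read both methionine codons of the mitochondrial code. NSun6 is known as a methyltransferase of cytoplasmic tRNAs and of mRNA sites with a CTCCA motif. The gene is transcribed within a long precursor, between MT-TI and the mRNA gene MT-ND2, with MT-TQ on the opposite strand, and is cut out of it.

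The gene reads as follows 5′ to 3′ in the mtDNA of the GRCh37 reference, where it starts 1 position lower than in the deposited files. It is shown because every result below is placed on it, and its anticodon is in capitals.

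MT-TM: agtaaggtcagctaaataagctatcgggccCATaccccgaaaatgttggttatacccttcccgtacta

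Its bases are counted from 1 at the 5′ end. The wobble cytosine is base 31 (position 4433), the anticodon arm spans bases 24 to 40, and the gene holds 18 cytosines. When the cloverleaf was laid over this sequence, 5 of 5 anticodon stem positions, 4 of 4 D stem positions, 6 of 7 acceptor stem positions and 3 of 5 T stem positions could pair.

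The NSun3 libraries held 47352 to 138921 reads and the NSun6 libraries 305392 to 467586, so 1 read equalled 7.20 to 21.1 RPM (reads scaled to a common library total) for NSun3 and 2.14 to 3.27 RPM for NSun6. The labels were checked on exon reads of NSUN3 and NSUN6. NSUN6 held 323, 428 and 323 reads in the NSun6 libraries and 0 in every NSun3 library. NSUN3 held 32, 19 and 0 reads in the libraries labelled NSun3 and 0, 0 and 8 in those labelled NSun6. The library labelled NSun3 replicate 3 therefore had no read of its transfected gene, the library labelled NSun6 replicate 3 had 8 reads of NSUN3, and the main comparisons are also given without the former.

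MT-TM was the mt-tRNA gene with the most reads in every NSun3 library. It held 10002, 4720 and 2089 plus-strand reads in NSun3 replicates 1, 2 and 3, against 48, 51 and 36 in the NSun6 libraries. In RPM these were 71998, 89016 and 44116 for NSun3 and 148, 109 and 118 for NSun6, so the lowest NSun3 library lay far above the highest NSun6 library. Of the 37 mtDNA genes, 45.9% had all NSun3 libraries above all NSun6 libraries in RPM. The means were 68377 ± 22668 RPM for NSun3 and 125 ± 20.5 RPM for NSun6 (SD, n = 3 each). In a fit of all genes the log2 fold change of NSun3 over NSun6 was 9.09 ± 0.57 (SE, edgeR quasi-likelihood test, adjusted p = 5.07e-06). In that fit 1.99% of 1405 genes were called higher in NSun3, 95.2% were called lower, and the median over all genes was -7.74. Because RPM is a share of a library, more bound RNA of 1 gene and less of the others cannot be told apart. Without NSun3 replicate 3 the log2 fold change was 9.33.

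As a share of mtDNA reads on both strands, MT-TM took 19.2%, 25.9% and 18.1% in the NSun3 libraries (95% Wilson intervals 18.8 to 19.5, 25.3 to 26.5 and 17.4 to 18.8, counting error only). In the NSun6 libraries it took 0.155%, 0.135% and 0.131%, with intervals of 0.117 to 0.206, 0.103 to 0.178 and 0.0949 to 0.182. The difference of the means was 20.9 percentage points (two-sided exact permutation p = 0.1, which is the lowest that 3 libraries against 3 allow). Without NSun3 replicate 3 the difference was 22.4. It was 42.3 with the reads on nuclear copies added, 6.83 as a share of all reads of a library and 2.02 with each position counted once. Of the reads in mt-tRNA genes, MT-TM held 50.3%, 62.1% and 48.4% in the NSun3 libraries. In the NSun6 libraries this was 0.281% to 0.315%, and MT-TM ranked 11 or 12 among the 22 genes.

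**Figure D1:**
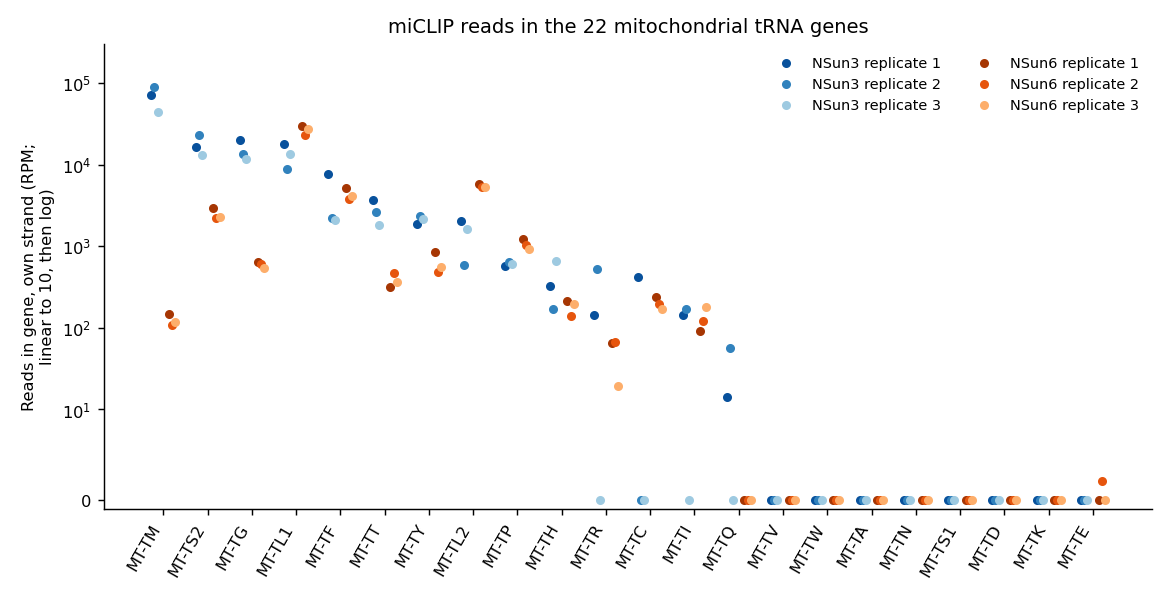
RPM on the gene's own strand (y axis, linear to 10 and logarithmic above) for each of the 22 mitochondrial tRNA genes (x axis, ordered by the NSun3 mean), with 1 point per library. MT-TM leads the NSun3 libraries at 44116 to 89016 RPM and lies at 109 to 148 RPM in the NSun6 libraries.

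The other mt-tRNA genes were read in the same fit. In that fit 1.99% of all 1405 genes were called higher in NSun3 and 95.2% lower, so most genes were called. Of the 22 mt-tRNA genes 13 passed the filter on low counts and 10 were called, 7 higher in NSun3 and 3 lower. Beside MT-TM, those higher were MT-TG (glycine) by a log2 fold change of 4.65 ± 0.34, MT-TT (threonine) by 2.83 ± 0.33, MT-TS2 (serine, AGY codons) by 2.81 ± 0.34, MT-TR (arginine) by 2.07 ± 0.86, MT-TY (tyrosine) by 1.75 ± 0.28 and MT-TH (histidine) by 1.03 ± 0.40 (SE, edgeR adjusted p from 5.47e-06 to 0.0412). Those lower were MT-TL2 (leucine, CUN codons) with -1.92 ± 0.42, MT-TL1 (leucine, UUR codons) with -0.97 ± 0.37 and MT-TP (proline) with -0.81 ± 0.21 (SE, edgeR adjusted p from 0.0014 to 0.0275). MT-TM had the largest fold change of the 13. MT-TM, MT-TG, MT-TS2 and MT-TT were called in all 11 alternatives, MT-TL2 in 10, MT-TY and MT-TP in 9, MT-TL1 in 6, MT-TH in 5 and MT-TR in 4. MT-TR held 20, 28 and 0 NSun3 reads against 21, 31 and 6 for NSun6, its RPM values overlapped between the enzymes, and its adjusted p over the edgeR and DESeq2 alternatives reached 0.684. MT-TH overlapped in RPM as well, and over the same alternatives its adjusted p reached 0.650. That of MT-TL1, MT-TP, MT-TL2 and MT-TY reached 0.775, 0.769, 0.652 and 0.165. Without NSun3 replicate 3, 9 mt-tRNA genes were called, 6 higher and 3 lower, beside 41 higher and 2308 lower of all 2558 genes tested. The split between higher and lower moved with the scaling, to 7 and 0 with TMM factors and to 4 and 6 with RLE size factors. Over all 1405 genes it was 26 and 1294 with TMM and 21 and 1354 with RLE, with medians of -7.64 and -8.12. With the replicate number as a block it was 4 and 2 for the mt-tRNA genes and 22 and 1310 for all genes. MT-TH, MT-TL1 and MT-TP changed sign under at least 1 alternative.

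The closest mtDNA genes in pattern over the 6 libraries, by Euclidean distance of centred log2(RPM + 10), were MT-ATP8 (2.12), MT-CO2 (2.18) and MT-CO1 (2.74), out of 27 other genes with at least 20 reads. MT-ATP8 encodes a subunit of ATP synthase, and the other genes encode subunits of cytochrome c oxidase. MT-CO2 held 1620, 603 and 585 reads in the NSun3 libraries and 19, 17 and 0 in the NSun6 libraries. Per length, MT-TM was far denser than its neighbours. At 1005540 RPM per kb (reads scaled to library total and gene length) it stood above MT-ND1, a complex I subunit gene, at 40530 RPM per kb, and above MT-ND2, another complex I subunit gene, at 2224 RPM per kb (NSun3 means). MT-TI, the isoleucine tRNA gene, held 20, 9 and 0 NSun3 reads and 30, 57 and 55 NSun6 reads. MT-TQ, the glutamine tRNA gene of the opposite strand, held 2, 3 and 0 NSun3 reads and 0 NSun6 reads.

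Within MT-TM the reads began at few places. NSun3 reads were listed at 19 of the 68 bases, 12 of them in all 3 libraries, between bases 26 and 55. The 3′ strand of the anticodon stem, bases 36 to 40, held 76.2%, 77.9% and 79.9% of the gene's reads in the NSun3 libraries. Base 40, the last of that stem, was the leading base in each, with 2533, 973 and 489 reads. Bases 36, 37, 38 and 39, the 3 last cytosines of the run ACCCC and the G after them, held similar amounts, between 10.7% and 19.8% of a library's reads. For base 38 these were 1417, 693 and 414 reads. On the other strand of the stem, base 26, directly after the cytosine at base 25, held 1444, 648 and 125 reads, the last being 5.98% of its library's reads against 14.4% and 13.7% in the other libraries. The variable region held 6.65% to 9.72%, the 5′ strand of the T stem 1.14% to 3.93% and the T loop 0.440% to 0.572%. The anticodon loop, bases 29 to 35 with the wobble cytosine, held 0 reads in all 6 libraries, as did the D arm and the acceptor stem.

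The few NSun6 reads lay on 7 of the same bases. Base 40 took 22, 29 and 20 of them, and base 26 took 12, 1 and 5. As shares, base 40 held 45.8%, 56.9% and 55.6% of the NSun6 reads against 25.3%, 20.6% and 23.4% of the NSun3 reads, without overlap between the enzymes (two-sided exact permutation p = 0.1). Bases 36 to 39 held 54.9% ± 3.48 for NSun3 and 30.9% ± 9.59 for NSun6 (SD, n = 3 each). The anticodon arm as a whole held 90.7%, 91.6% and 85.9% of the NSun3 reads and 100%, 100% and 91.7% of the NSun6 reads, a difference of -7.83 percentage points (two-sided exact permutation p = 0.1), or -6.08 without NSun3 replicate 3. With the reads on nuclear copies added the difference was -36.7, and with each position counted once, whatever its reads, it was -53.9. An NSun6 share rests on 36 to 51 reads. Over the 19 bases, which share their libraries, Pearson's r of the read profiles was 0.937 to 0.980 for pairs of NSun3 libraries, 0.861 to 0.912 for pairs of NSun6 libraries and 0.695 to 0.839 for pairs across enzymes. Spearman's rho was 0.910 to 0.946, 0.697 to 0.865 and 0.730 to 0.830, so by rank the NSun6 pairs did not stand apart from the pairs across enzymes.

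**Figure D2:**
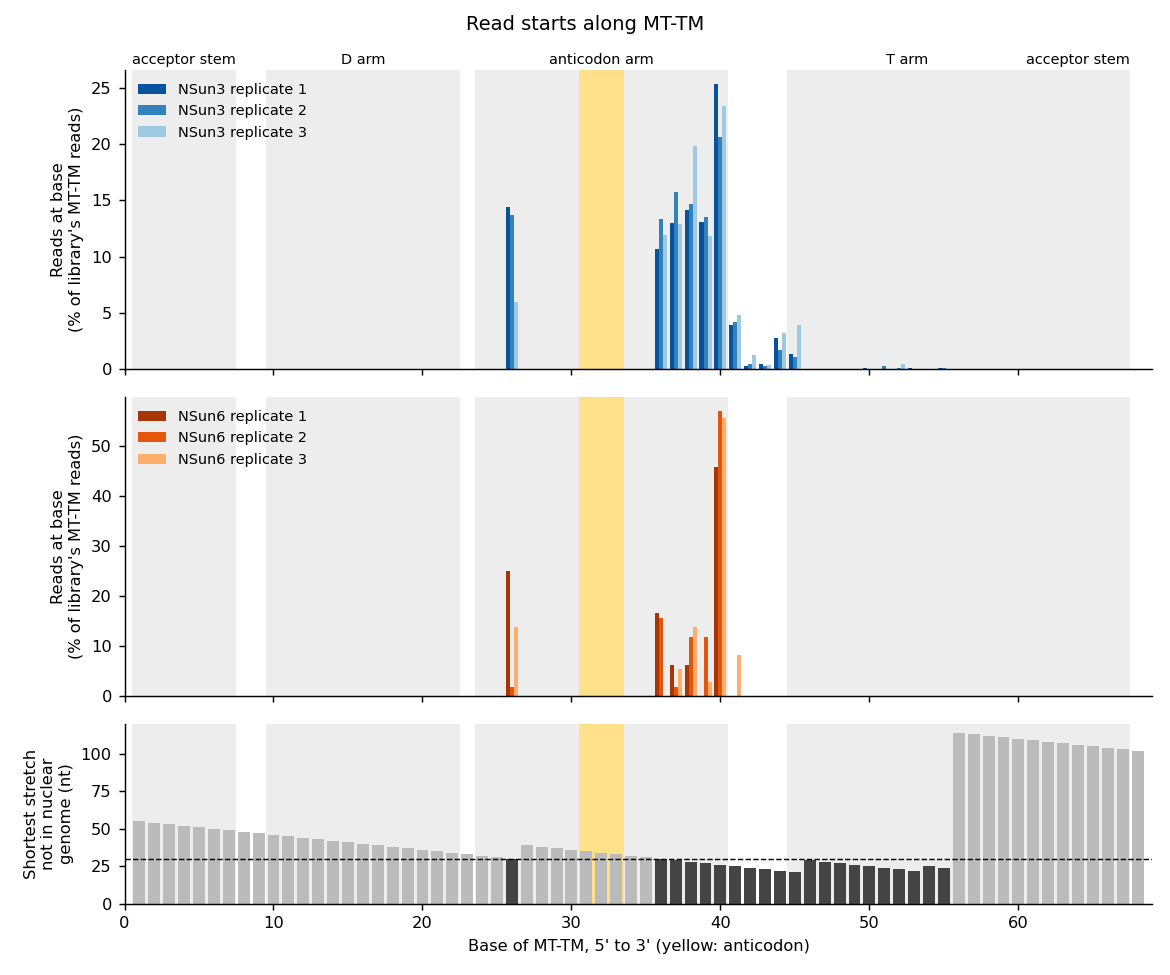
Share of each library's MT-TM reads at each base of the gene for NSun3 (top) and NSun6 (middle), and the shortest stretch from each base that is absent from the nuclear genome, in nt (bottom, dark up to the dashed line at 30). Bars are single libraries, grey bands the tRNA arms and the yellow band the anticodon, and all reads lie on dark bases.

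Each read was also given to the nearest cytosine within 2 nt, as the study did. This placed reads on 5 of the 18 cytosines of MT-TM. The cytosine at base 38 (4440) took 5255, 2305 and 1151 NSun3 reads and 25, 41 and 26 NSun6 reads, 8.71 ± 0.95 higher on the log2 scale (SE, edgeR adjusted p = 0.000226). The cytosine at base 37 took 1296, 743 and 269 reads against 3, 1 and 2 (log2 fold change 10.58 ± 0.88, SE). The cytosine at base 36 took 1073, 629 and 249 against 8, 8 and 0 (9.14 ± 1.16), and that at base 25 took 1444, 648 and 125 against 12, 1 and 5 (8.82 ± 1.22). The cytosine at base 55 took 22, 7 and 0 NSun3 reads and no NSun6 read, and did not pass the filter. The other 13 cytosines, the wobble cytosine among them, had 0 reads in every library. All 4 cytosines that passed were called higher in NSun3, beside 16.0% of the 1774 cytosines tested in the genome, and 15.7% of these had all NSun3 libraries above all NSun6 libraries. The filter lets a cytosine pass through the enzyme where it is high, as for bases 25, 36 and 37 with at most 12 NSun6 reads in a library, so their fold changes and the number called are given as a description. Without NSun3 replicate 3, 5 cytosines passed and 5 were called. Tested by listed position, 11 bases of MT-TM passed and 11 were called, where 18.6% of 1955 positions were called higher. Of these 11, all but base 40 had at most 12 NSun6 reads in a library and passed through NSun3 alone. Bases 42 to 45 had no NSun6 read, and this count is a description too.

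The read positions coincided with how unlike the nuclear genome each stretch of MT-TM is. The nucleus holds many copies of mtDNA, and reads with more than 1 equally good place were not kept in these files. From each base, the shortest stretch of MT-TM read 5′ to 3′ that is found nowhere in the nuclear chromosomes of GRCh37 was measured. Such a stretch was at most 30 nt long from 21 of the 68 bases, and 19 of these 21 held NSun3 reads. From the other 47 bases it was longer, and 0 of them held a read in any library. The limit of 30 nt was chosen after the positions of the reads had been seen. The anticodon loop belongs to the latter, with 34 nt from base 32, directly after the wobble cytosine, as do bases 1 to 25 (31 to 55 nt) and bases 56 to 68 (102 to 114 nt). At these bases a count of 0 therefore does not show that the reverse transcriptase did not stop there.

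The same boundary held along mtDNA. On the plus strand, 25.2% of the 10127 positions with a stretch of at most 30 nt held NSun3 reads and 22.9% held NSun6 reads. Of the 6421 positions with a longer stretch, 0.218% held NSun3 reads and 0.358% NSun6 reads, and these made up 0.119% and 0.184% of the plus-strand mtDNA reads. Over all 22 mt-tRNA genes, no read of any library was listed at a base with a stretch over 30 nt. The share of bases at or under 30 nt ranged from 0% in MT-TV, MT-TN, MT-TS1 and MT-TK to 100% in MT-TL1 and MT-TT, and was 30.9% in MT-TM. Per base of this kind the 3 NSun3 libraries together held 801 reads in MT-TM, 171 in MT-TS2, 61.6 in MT-TG and 48.3 in MT-TL1.

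**Figure D3:**
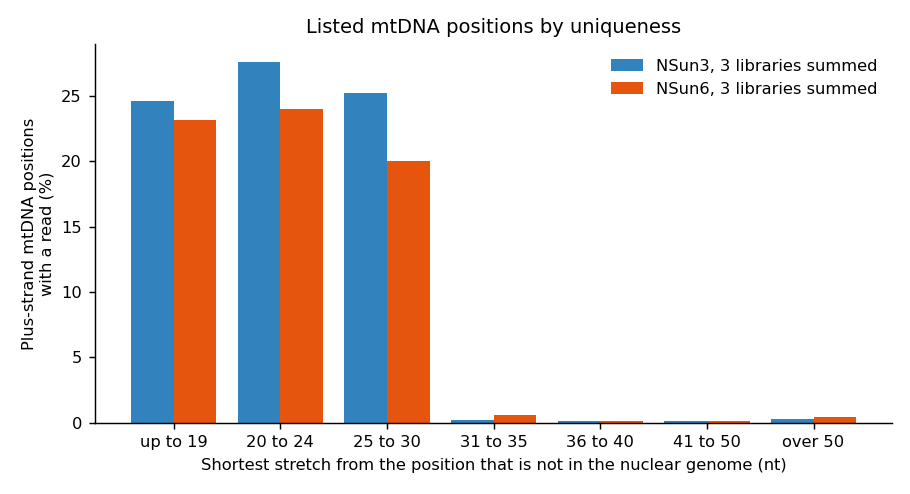
Percent of plus-strand mtDNA positions with at least 1 read (y axis) by the length of the shortest stretch from that position that is absent from the nuclear genome (x axis, nt), summed over the 3 libraries of each enzyme. The share is 25.2% for NSun3 and 22.9% for NSun6 up to 30 nt, and 0.218% and 0.358% beyond.

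Reads per nt in MT-TM were compared with those at the neighbouring plus-strand positions. The 500 nt before the gene held 4248, 1615 and 1240 NSun3 reads, all at the 108 positions there with a stretch of at most 30 nt, and the 500 nt after it held 258, 52 and 54. In the NSun6 libraries the counts were 35, 58 and 55 before and 14, 5 and 7 after. The log2 ratio of reads per nt in the gene to reads per nt in both flanks was 5.03, 5.38 and 4.57 for NSun3 and 3.85, 3.58 and 3.11 for NSun6, with 1 read added to each count. The enzymes did not overlap, and the difference was 1.48 (two-sided exact permutation p = 0.1), or 1.69 without NSun3 replicate 3. With flanks of 1000 nt the log2 ratios were 5.47, 6.07 and 5.20 for NSun3 and 2.00, 1.26 and 1.45 for NSun6, so the NSun6 ratio was smaller than with 500 nt and the difference was 4.01. With 500 nt it was 2.55 with the reads of the nuclear copies added to the gene. With flanks of 100 nt, which held 0 or 1 NSun3 reads per library, the ratio is set by the read added to each count and gives no density of the flanks. On the plus strand, no read of any library was listed within 86 nt before the gene or 242 nt after it. On the minus strand just after the gene, position 4472 held 27 reads in NSun3 replicate 1 and 29 in replicate 3. The nearest positions with a stretch of at most 30 nt lay 84 nt before and 238 nt after, so whether reads began at the ends of the tRNA in the precursor was not measurable.

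Nuclear copies of MT-TM held more NSun3 reads than the gene. A search with the gene and its surroundings found 54 copies with at least 30 bases of MT-TM. Ranked by NSun3 reads, copies 32 to 52 are adjoining pieces of a single stretch of chromosome 12 (127067863 to 127068852), with 0 reads each. The 54 copies are therefore not all separate places. Reads on the strand of the copied tRNA numbered 12400, 6184 and 6728 in the NSun3 libraries and 17, 13 and 15 in the NSun6 libraries. This was 89259, 116626 and 142085 RPM against 52.5, 27.8 and 49.1 RPM, without overlap between the enzymes. Of the reads on gene and copies combined, the copies took 55.4%, 56.7% and 76.3% for NSun3, against 20.3% to 29.4% for NSun6 (two-sided exact permutation p = 0.1). The highest of these shares belongs to NSun3 replicate 3, without which the NSun3 shares were 55.4% and 56.7%. Most reads on these regions lay in the copied tRNA, although how uniquely reads can be placed in the copies or their flanks was not measured. The flanks of the tRNA in the same copies, 3815 nt in all, held 71, 24 and 45 NSun3 reads. The density per nt was 207, 306 and 177 times higher in the 3214 nt of tRNA, which include the chromosome 12 pieces without reads. The opposite strand held 2, 0 and 3 reads.

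**Figure D4:**
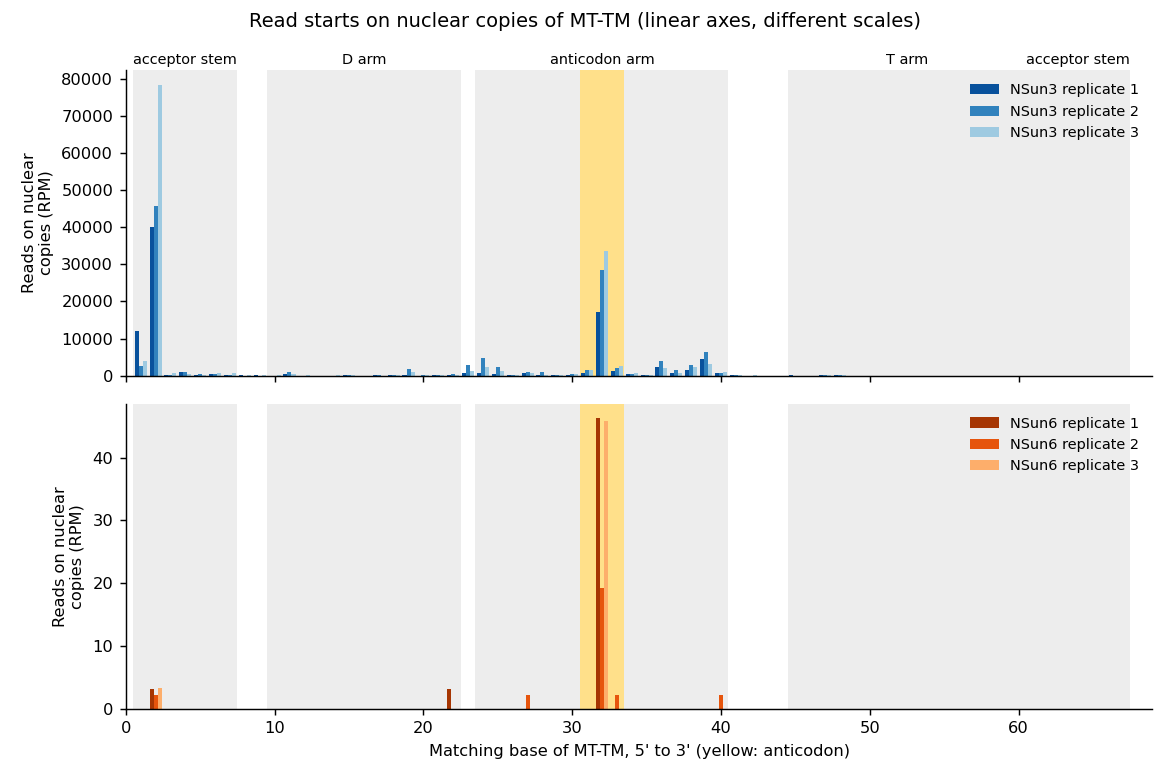
RPM on the 54 nuclear copies by the matching base of MT-TM, for the NSun3 libraries (top) and the NSun6 libraries (bottom, on a smaller scale). Bars are single libraries, and the tallest stand at base 2 for NSun3 and at base 32, directly after the wobble cytosine (yellow band, the anticodon), for NSun6.

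On the copies, reads did begin in the anticodon. Base 32, the base directly after the wobble cytosine, held 2396, 1513 and 1585 NSun3 reads and 15, 9 and 14 NSun6 reads. In RPM this was 17247, 28534 and 33473 against 46.3, 19.2 and 45.8, with means of 26418 ± 8317 and 37.1 ± 15.5 (SD, n = 3 each, two-sided exact permutation p = 0.1). The difference of the means was 26381 RPM, 22854 RPM without NSun3 replicate 3 and 12646 RPM without the copy that held the most reads. Base 32 took 22.4% ± 2.75 of the NSun3 reads on copies and 83.6% ± 12.7 of the few NSun6 reads. Reads at base 32 lay on 14 copies, 8 of them with such reads in all 3 NSun3 libraries. How listed positions relate to a cytosine was read from CTCCA motifs in the NSun6 libraries. There 56.1% to 61.6% of the positions lay directly after the motif cytosine taken as reference and 34.7% to 39.7% at it. These shares rest on 506 to 776 positions per library and strand, where an NSun6 library listed 27780 to 78300 positions in all. Which cytosine of the motif NSun6 was attached to was not tested, so this does not fix the offset at base 32.

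The other peak lay at the 5′ end of the tRNA. Base 2 held 5559, 2425 and 3709 NSun3 reads, or 46.4% ± 8.07 (SD, n = 3) of those on copies, and 1 read in each NSun6 library. Base 1 held 1684, 138 and 187 NSun3 reads, and no NSun6 read. A copy on chromosome 8 (minus strand, in an intron of LINC00293 of the opposite strand) held 506, 189 and 290 NSun3 reads. Of these, 84.4% were at base 2, and its sequence is not printed. At base 1 the NSun3 libraries differed among themselves, with 13.6% of the reads on copies at base 1 in replicate 1 against 2.23% and 2.78% in the others.

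Of the 54 copies, which count the adjoining pieces on chromosome 12 singly, 29 held an NSun3 read, 9 an NSun6 read and 18 at least 20 NSun3 reads. One copy on chromosome 7 (chr7:63571929-63571996, hg19, minus strand, 94.1% identical, inside an intron of GUSBP6 of the opposite strand) held 7451, 3084 and 3747 NSun3 reads, 56.4% of all on copies, against 7, 4 and 8 for NSun6. It carried both peaks, with 8165 reads at base 2 and 2868 at base 32 over the 3 NSun3 libraries. A copy on chromosome 22 (chr22:24349643-24349710, plus strand, in no annotated gene) held 973, 636 and 703 NSun3 reads, 91.7% of them at base 32. A copy on chromosome 9 (chr9:81357661-81357728, minus strand, in no annotated gene) held 164, 77 and 106, of which 90.8% were at base 32. The 3 copies with the most reads at base 32 are shown from base 32 to base 55 beside MT-TM, with bases that differ from MT-TM in capitals, because their reads begin beside the wobble cytosine. Whether a listed position is the first base of the read or the base before it is not stated for these files.

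MT-TM: ataccccgaaaatgttggttatac

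chromosome 7, minus strand: ataccccAaaaatgttggttatac

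chromosome 22, plus strand: atacccTgaaaatgttggttatac

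chromosome 9, minus strand: ataccccgaaaatgttAgttaCac

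In bases of MT-TM counted from its 5′ end, with MT-TM's base first, the copy on chromosome 7 has G39A, that on chromosome 22 has C38T and that on chromosome 9 has G48A and T53C. Over the first 20 nt from base 32, each of the 3 copies differs from MT-TM at 1 base. The authors' alignment allowed 1 mismatch but kept a read only at a unique best place, and the source of these reads was not tested.

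The reads at base 2 lay on the copy on chromosome 7 and on others. A copy in an intron of MALRD1 (chr10:20036683-20036750, plus strand) held 628, 188 and 471 NSun3 reads, 94.6% of them at base 2. A copy in an intron of JAK2 (chr9:5095158-5095226, plus strand) held 286, 166 and 231, with 79.4% at base 2. A copy on the Y chromosome (chrY:8240214-8240281, plus strand, in no annotated gene) held 300, 138 and 231, with 98.5% at base 2. A copy on chromosome 4 (chr4:156383819-156383886, minus strand, in no annotated gene) held 113, 57 and 80, with 89.6% at base 2. Bases 2 to 25 are printed for the copy on chromosome 7 and for those of MALRD1, JAK2 and the Y chromosome, as examples of copies led by base 2, with differing bases again in capitals.

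MT-TM: gtaaggtcagctaaataagctatc

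chromosome 7, minus strand: gtaaggtcagctaaataagctatc

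MALRD1: gCaaggtcagctaaataagctatc

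JAK2: gtaagTtcagctaaataagctatT

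Y chromosome: Ttaaggtcagctaaataagctatc

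The copy on chromosome 7 is identical to MT-TM over this stretch. A read confined to these bases would fit both places equally well and would not be kept. The copy of MALRD1 has T3C, that of JAK2 has G7T and C25T, and that of the Y chromosome has G2T. The second copy by reads, in the pseudogene MTND2P6 (chr7:57254053-57254120, plus strand, 95.6% identical), held 1466, 1138 and 528 NSun3 reads, led by base 39 with 1035 of them, and 0 at base 32 and base 2.

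In the fit of all cytosines, 35 cytosines of 13 copies passed the filter and all 35 were called higher in NSun3. Among them were the wobble cytosines of 8 copies. That of the copy on chromosome 7 took 1431, 959 and 918 NSun3 reads and 7, 4 and 8 NSun6 reads (log2 fold change 9.71 ± 0.88, SE). That of the copy on chromosome 22 took 925, 587 and 687 against 8, 5 and 4 (9.34 ± 0.78, SE). The other wobble cytosines took between 36 and 329 NSun3 reads and at most 1 NSun6 read. Of all cytosines tested 16.0% were called higher. Since the 35, with the 8 among them, had few or no NSun6 reads and passed through NSun3, their number and fold changes are a description. RNA of the copies and mt-tRNAMet itself cannot be told apart as the source of these reads, since no read sequences were used here.

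The same search for each of the other 21 genes found copies as well, and their NSun3 reads numbered at most 48, 18 and 22 per gene in replicates 1, 2 and 3. MT-TF, the phenylalanine tRNA gene, held 48, 7 and 22 on 44 copies, beside 1070, 118 and 99 in the gene. MT-TS2 held 37, 18 and 17 on its copies, beside 2285, 1207 and 612 in the gene. MT-TL1, with 2516, 462 and 642 reads in the gene, held 0 on its copies. More reads on copies than in the gene were also found for MT-TE and MT-TK, at low counts. MT-TE held 22, 4 and 15 on its copies and MT-TK 7, 1 and 2, with 0 NSun3 reads in either gene. MT-TQ held 3, 1 and 1 on its copies, beside 2, 3 and 0 in the gene.

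**Figure D5:**
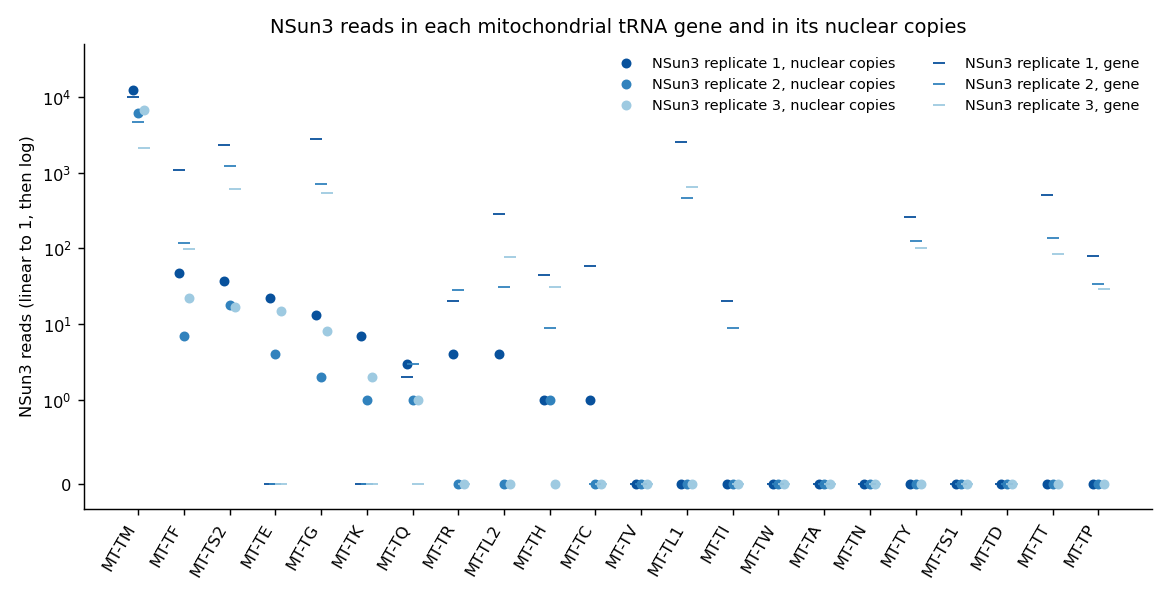
NSun3 reads in each mitochondrial tRNA gene (dashes) and on its nuclear copies (points), 1 symbol per library (y axis, linear to 1 and logarithmic above), with genes ordered by the reads on copies. MT-TM has 6185 to 12400 reads on copies (this search, run alike for all genes, found 1 read more in replicate 2 than the search above), and no other gene has more than 48.

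The bisulfite table did not measure methylation of MT-TM. Of its 18 cytosines 0 were listed, and 0 plus-strand cytosines were listed in the 150 nt on either side. The opposite strand was covered at all 13 of its cytosines within MT-TM, with 31 to 220 reads each. Of the 22 mt-tRNA genes, 13 had a cytosine with over 5 reads on their own strand. On the nuclear copies, 8 of 892 sense cytosines were listed, and 0 had over 5 reads, so a methylation level of the wobble cytosine was not available from either place.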

How the data were processed

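RNA bound by NSun3 or NSun6 was measured by miCLIP in 6 libraries of HEK293, 3 per enzyme, with 47352 to 467586 reads each. The authors collapsed reads that shared a random barcode, cut adapters off with cutadapt, kept reads of at least 18 nt, placed them with bowtie on hg19 (1 mismatch, unique best hit), and the deposited values are whole-number read counts per position. The files have no strand column, and the earlier of their 2 runs through the chromosomes was read as plus. The deposited bisulfite table gives the percent methylated with its methylated and unmethylated read counts for both samples, mapped by the authors with Bismark. The way these were pooled was not given in the sources used here, so they carry no replicate error.

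Groups came from the sample titles. RPM was the read count scaled to all reads of a file. Two-sided exact permutation tests were used for shares. Counts per gene, per cytosine (nearest within 2 nt) and per listed position were fitted with edgeR 4.0.16 (quasi-likelihood test, filterByExpr, library totals as sizes, Benjamini-Hochberg adjusted p under 0.05) in R 4.3.3, after a test on simulated data. An SE is the log2 fold change over the square root of F. DESeq2 1.42.0, TMM and RLE scaling, no filter, a replicate block, other flanks and libraries left out were alternatives. Replicates differed by more than sampling noise, and the labels do not say whether they were separate cultures, so p-values measure only the spread between these samples. Intervals and limits cover counting error only. Nuclear copies were found with BLAST 2.17.0 (e-value 0.001, at least 30 bases of MT-TM) in GRCh37 with its GENCODE annotation. Sequences of mtDNA are from the same reference. The genes named were MT-TM, its neighbours, the mt-tRNA genes and the 3 genes closest in pattern. The members and lists were chosen with earlier results of these data known.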

Additional observations from a re-analysis of the deposited data

Results flagged for a closer look

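Reads on nuclear copies of MT-TM stand outside the reads assigned to the gene. Directly after the wobble cytosine of these copies the NSun3 mean was 26418 RPM, above the 37.1 RPM of the NSun6 libraries. On the minus strand of MT-TM there were 13 NSun3 reads in all (10, 3 and 0 by replicate) and 0 NSun6 reads. In the bisulfite table, 0.917% of 1418 cytosine calls on the minus strand of MT-TM, summed over 13 cytosines, were methylated. In the 150 nt after it this was 6.05% of 1521 calls over 11 cytosines, and in the 150 nt before it 0.457%. A read that covers several cytosines gives several calls. The bisulfite values have no control sample, and no other result was singled out in this way.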

How the results depend on the processing

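The 37 alternatives to the differences of shares, densities and RPM kept their direction, and their permutation tests cannot pass the threshold at this size. The MT-TM gene was called in 11 of 11, and 22 of 24 counts of calls stayed within 1.5 times. Restricting the flank density to positions with a stretch of at most 30 nt gives the same difference by construction and is not counted. The number of MT-TM cytosines called was 4, and 11 when each listed position was tested, which counts positions in place of cytosines. Leaving out 1 library at a time gave a share difference of 18.5 to 22.4 percentage points, an anticodon arm difference of -10.6 to -6.08, a flank density difference of 1.28 to 1.69 (log2), a base 32 difference of 22854 to 30966 RPM on copies, 4 to 5 cytosines called, a gene log2 fold change of 8.86 to 9.33 and 7 to 12 mt-tRNA genes called. With 2 libraries left in a group, the smallest possible p of a share was 0.2. Counting the copies with the gene raised the share difference to 42.3, and counting each position once lowered it to 2.02. These settings moved the anticodon arm difference to -36.7 and -53.9. Without the chromosome 7 copy with the most reads, the base 32 difference was 12646 RPM. With no filter, 99 genes were higher and 2847 lower, against 28 and 1338.

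Libraries with the same replicate number correlated by 0.0405, 0.0779 and 0.0321 in their deviations, and each correlated best with its own number. Only 48 to 72 of the 1405 genes tested had at least 20 reads in a pair of NSun3 libraries. These low correlations therefore cannot exclude that libraries with the same number share a batch. With the number as a replicate block, 4 cytosines and 6 mt-tRNA genes (10 without it) were called, and the MT-TM log2 fold change was 9.04. Depth limits the NSun6 profile of MT-TM to 36 to 51 reads per library. The uniqueness limit of 30 nt, the analysis of copies and the density at such positions alone were chosen after seeing the data.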
